A study of Mus musculus with 8 samples.

Results

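The 8 genes described here carry the MHC class II pathway, by which cells show peptides from engulfed proteins to CD4+ T cells. They are Cd74, the chain genes H2-Aa, H2-Ab1 and H2-Eb1, the peptide-loading genes H2-DMa, H2-DMb1 and H2-DMb2, and Ciita, and they make up 8 of the 55414 genes in the count table. They were chosen on the comparison of zinc with Milli-Q water, because Cd74 had the smallest p among the genes tested there. Differences of the 8 genes between those groups are therefore given as a description, and the order by p and the DESeq2 call below are given only as the values on which they were chosen.

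Paneth cells (PCs), the granule-filled secretory cells at the base of small-intestinal crypts, were isolated by fluorescence-activated sorting and profiled by bulk RNA-seq. There were 8 libraries, each from 1 mouse, and the study's methods name C57BL/6J as the strain from which its PCs were sorted. The Milli-Q water group (4 mice) drank ultrapure water for 7 days, and the zinc group (4 mice) drank the same water with 25 mM ZnSO4 for 7 days. Every mouse of both groups was injected with TNF, an inflammatory cytokine, and its PCs were taken 3 hours later, so the design holds no library without TNF and asks what zinc changes in its presence. The labels give neither age nor sex, and the cells of each mouse were pooled into 1 library, so a lower value cannot tell fewer expressing cells apart from less RNA per cell.

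A class II molecule is a pair of an alpha and a beta chain, here H2-Aa with H2-Ab1, and H2-Eb1 as the beta chain of the second kind of pair. The invariant chain, encoded by Cd74, fills the groove of new pairs and takes them to endosomes, where proteases degrade it. The H2-DM pair, encoded by H2-DMa with H2-DMb1 or H2-DMb2, then helps to exchange the remaining fragment for other peptides. Ciita encodes the coactivator that switches these genes on together, and interferon-gamma, through JAK kinases and IRF1, is its best known inducer outside dedicated antigen-presenting cells. Intestinal epithelial cells can carry class II molecules, and inflammation raises them there.

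Class II promoters are known for a shared layout, an X box bound by the RFX complex and CREB-type factors and, nearer the gene, a Y box bound by NF-Y at a CCAAT sequence that is read on the opposite strand. The 150 bases before the annotated start are shown for the 4 genes whose windows held this layout, because it is the sequence feature these members share. They come from RefSeq on GRCm38.p6 and are written 5′ to 3′ along each gene's own strand. Capitals mark AAC, within the stretch taken here as X-like, and GATTGG, the Y-like stretch.
H2-DMb2 (chr17:34145099-34145248, plus strand): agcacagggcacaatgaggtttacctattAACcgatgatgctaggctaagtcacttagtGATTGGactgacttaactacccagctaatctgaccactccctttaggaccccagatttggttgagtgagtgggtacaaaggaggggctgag
H2-DMb1 (chr17:34153041-34153190, plus strand): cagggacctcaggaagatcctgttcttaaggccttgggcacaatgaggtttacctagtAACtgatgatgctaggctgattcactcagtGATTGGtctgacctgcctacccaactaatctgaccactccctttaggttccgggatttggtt
H2-Aa (chr17:34287824-34287973, minus strand): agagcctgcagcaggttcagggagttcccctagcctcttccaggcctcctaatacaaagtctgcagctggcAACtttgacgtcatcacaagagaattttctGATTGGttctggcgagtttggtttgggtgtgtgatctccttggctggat
H2-Eb1 (chr17:34305717-34305866, plus strand): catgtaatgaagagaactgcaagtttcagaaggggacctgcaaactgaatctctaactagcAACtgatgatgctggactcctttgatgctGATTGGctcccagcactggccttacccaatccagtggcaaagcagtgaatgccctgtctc

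In these 4 sequences AAC and GATTGG were separated by 27 bases, except in H2-Eb1, where 26 bases lay between them. Counted back from the annotated start, GATTGG began at -91 in H2-DMb2, -62 in H2-DMb1, -60 in H2-Eb1 and -49 in H2-Aa. The pair was searched on both strands as AAC, 26 or 27 bases of any kind, then GATTGG, in windows from 250 bases before to 50 after each start. It was present in 166 of 32851 RefSeq windows, or 0.505%, and in 4 of the 6 windows of member genes. The pattern was drawn up after these windows had been read, so its count among the members is a description. Among 106 other listed genes with a window, 2 held the pair, H2-Eb2 and H2-Oa, which are further class II genes. Of its elements, GATTGG alone occurred in 16.1% of all windows and CCAAT, which lies within GATTGG read on the opposite strand, in 37.4%. GATGATG, seen in H2-DMb1, H2-DMb2 and H2-Eb1 just after AAC, occurred in 3.48%, and the CREB motif TGACGTCA, seen in H2-Aa between the capitals, in 1.79%. H2-DMa had 2 windows, neither with the pair, and GATTGG in 1 of them at -199. Cd74, H2-Ab1 and Ciita had no entry.

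**Figure D1:**
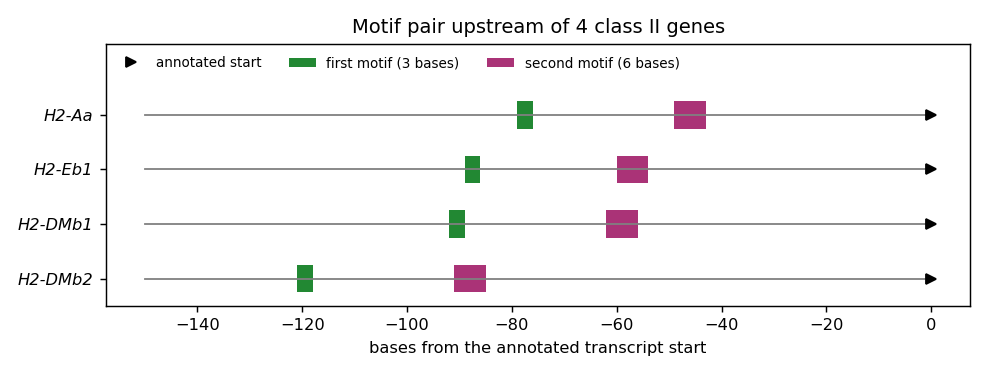
Position of the motif pair upstream of the 4 member genes shown above. The horizontal axis is the distance in bases from the annotated transcript start, green blocks are the first motif of 3 bases (AAC) and purple blocks the second of 6 bases (GATTGG); the pair keeps a spacing of 26 or 27 bases while its distance from the start differs, with the second motif at -49 in H2-Aa and -91 in H2-DMb2.

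On GRCm39, Cd74 (ENSMUSG00000024610) lies at chr18:60936899-60945731, and Ciita (ENSMUSG00000022504) at chr16:10297923-10347694, both on the plus strand. The other 6 genes lie close together on chromosome 17. On the plus strand are H2-DMa (ENSMUSG00000037649) at chr17:34338515-34358958, H2-DMb2 (ENSMUSG00000037548) at chr17:34362197-34370529 and H2-DMb1 (ENSMUSG00000079547) at chr17:34372046-34379204. Next come H2-Ab1 (ENSMUSG00000073421) at chr17:34476663-34488393 and H2-Eb1 (ENSMUSG00000060586) at chr17:34504236-34535648, also on the plus strand, and H2-Aa (ENSMUSG00000036594) at chr17:34493404-34506798 on the minus strand. H2-Aa and H2-Eb1 overlap on opposite strands, as do H2-DMa and Brd2, and Ciita and Dexi. H2-DMb1 and H2-DMb2 are near copies: 19.1% of the 75-base words of the H2-DMb1 transcript also occur in H2-DMb2, and 17.8% the other way round, so a read could be credited to either. None of the other 6 genes shared a word of that length with another gene.

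Library totals ran from 10623658 to 15101627 counts. CPM values below are counts scaled to a common library size with TMM factors, and the upper limit for a gene with 0 counts, 3 counts, equals 0.179 to 0.369 CPM in these libraries (counting error only). Lyz1, Defa24 and the other 8 PC markers of a 10-gene list were abundant in all 8 libraries, summing to 391264 to 734350 CPM, as the label of purified PCs says. Zinc 3 stood apart from the other libraries: TNF and NF-kB target genes summed to 117 CPM there, beside 1399 to 1498 CPM in the other zinc libraries and 1498 to 1721 CPM with Milli-Q water. Enterocyte markers summed to 574 CPM in zinc 3 and 90.2 to 181 CPM in the other 7 libraries. Fold changes that this library moved are given with and without it. Milli-Q water 3 and 4 differed in another way, with PC marker sums of 734350 and 574580 CPM beside 391264 to 493192 CPM in the other 6 libraries. These sums depend in part on the scaling. It took Milli-Q water 3 from 10733407 to 8125275 counts and Milli-Q water 4 from 14019512 to 12507037, which raised every CPM value there. Both had been singled out in earlier results of these data as short-transcript libraries, a trait that was not measured here. Without Milli-Q water 3 and 4, the median log2 fold change of the class II genes described below was -1.57, beside -1.35 with all libraries.

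Class II transcripts were a small share of the PC transcriptome. The 8 genes held 5756 counts over the 8 libraries, or 0.00917 to 0.00963% of each library in Milli-Q water 1 to 3 and 0.00348% in Milli-Q water 4. In the zinc libraries 1 to 4 the share was 0.00217, 0.00317, 0.00421 and 0.00297%. Cd74 alone took 43.2% (zinc 3) to 71.1% (zinc 4) of the class II CPM.

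Levels of different genes were compared as TPM, in which counts are divided by exon length before scaling. Cd74 was highest at a mean of 11.9 TPM over the 8 libraries, 3.28 times the level of H2-Ab1 at 3.64 TPM. H2-Eb1 followed at 1.69 TPM, H2-DMb1 at 0.859, H2-Aa at 0.739, H2-DMa at 0.212, Ciita at 0.135 and H2-DMb2 at 0.0297 TPM. Neighbours in this order kept it in 8 of 8 libraries, with 3 exceptions that kept it in 7 of 8: H2-DMb1 over H2-Aa, H2-DMa over Ciita and Ciita over H2-DMb2. With Milli-Q water, mean ± SD (n = 4) did not overlap for Cd74 over H2-Ab1 (17.3 ± 7.42 and 4.70 ± 1.88 TPM) and for H2-Aa over H2-DMa (1.19 ± 0.597 and 0.279 ± 0.162 TPM). It overlapped for the other neighbours, closest of all for H2-DMb1 (1.20 ± 0.491 TPM) and H2-Aa, so these are ordered within libraries but not beyond the spread between mice. The order was the same in both groups and with the longest transcript of each gene as its length. By either length H2-Aa (4292 and 3223 bases) is longer than H2-DMb1 (1681 and 1404 bases). The place of H2-DMb1 over H2-Aa therefore rests on these lengths, as mean CPM was 1.64 for H2-DMb1 and 3.63 for H2-Aa. In TPM the alpha chain H2-Aa stood below both beta chains, and the coactivator Ciita had a lower mean than its targets in the list other than H2-DMb2.

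In the comparison of zinc with Milli-Q water, the edgeR quasi-likelihood test called 0 of 10707 genes (0%) at an adjusted p of 0.05, and 1092 genes (10.2%) had an unadjusted p under 0.05. By DESeq2, 4 of 18720 genes (0.0214%) were called, and Cd74 was among them with Lrp1, Ms4a12 and Slc14a1. Limma-voom called 0, with 1324 unadjusted. The filter on low counts was passed by 7 of the 8 class II genes, and H2-DMb2 was left out. For those 7 the fitted log2 fold change was below 0 in each case, with a median of -1.35, beside 0.0062 for all genes tested. Ordered by p, Cd74 was number 1, H2-Eb1 13, H2-Aa 19, H2-Ab1 544, H2-DMb1 633, Ciita 1072 and H2-DMa 2889 of 10707. As this contrast chose the genes, nothing is read from these counts against the background.

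The invariant chain gene Cd74 had the most counts. In Milli-Q water libraries 1 to 4 it was at 56.7, 51.5, 65.5 and 24.2 CPM, from 829, 864, 532 and 303 counts. The corresponding values with zinc were 13.2, 16.1, 16.8 and 21.5 CPM, from 141, 225, 240 and 266 counts. Milli-Q water 4 lay far below the other water libraries and just above zinc 4, and the groups did not overlap. Its mean and SD over 4 mice were 49.5 ± 17.8 CPM with Milli-Q water and 16.9 ± 3.41 CPM with zinc. The fitted log2 fold change was -1.55 (SE, its standard error, 0.280). Over all genes tested, 3.12% had their 4 zinc libraries all below the 4 water libraries.

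The alpha chain gene H2-Aa had the lowest fold change of the tested members. It was at 6.36, 5.66, 10.3 and 1.68 CPM in the Milli-Q water libraries and at 0.562, 1.08, 2.25 and 1.13 CPM in the zinc libraries, which are 93, 95, 84 and 21 counts against 6, 15, 32 and 14. Zinc 3 lay above Milli-Q water 4, so the groups overlapped by 1 library of each. The log2 fold change was -2.22 (SE 0.540), and -2.64 without zinc 3.

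Its partner H2-Ab1, a beta chain gene, was at 12.4, 12.7, 26.6 and 6.80 CPM with Milli-Q water and at 4.12, 5.74, 11.8 and 5.32 CPM with zinc. Milli-Q water 3 was more than any other library, and zinc 3 lay above Milli-Q water 4 and just under Milli-Q water 1 and 2. The log2 fold change was -1.09 (SE 0.423). It was -0.66 without Milli-Q water 3 and -1.49 without zinc 3.

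The other beta chain gene, H2-Eb1, was at 7.73, 8.04, 10.8 and 3.60 CPM with Milli-Q water and at 2.34, 2.08, 3.51 and 1.05 CPM with zinc. The highest zinc library, zinc 3, lay just under the lowest water library, Milli-Q water 4. The log2 fold change was -1.73 (SE 0.400), and -2.03 without zinc 3. On library totals without scaling factors these 2 libraries changed places, at 3.80 CPM in zinc 3 and 3.21 CPM in Milli-Q water 4.

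The peptide-loading genes were near the limit of these libraries. H2-DMa had 20, 32, 11 and 8 counts with Milli-Q water, or 1.37, 1.91, 1.35 and 0.640 CPM. It had 4, 4, 24 and 3 counts with zinc, or 0.375, 0.287, 1.68 and 0.242 CPM. Only zinc 3 was in the range of the water libraries, and the other 3 zinc libraries lay below all of them. The log2 fold change was -0.99 (SE 0.633) with zinc 3 and -2.11 (SE 0.550) without it.

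H2-DMb1 repeated that arrangement, with 31, 39, 33 and 13 counts with Milli-Q water against 7, 8, 27 and 6 with zinc. In CPM these are 2.12, 2.32, 4.06 and 1.04 against 0.656, 0.574, 1.89 and 0.484. Again zinc 3 alone overlapped the water libraries. The log2 fold change was -1.35 (SE 0.540), and -2.01 (SE 0.505) without zinc 3. Its near copy H2-DMb2 had 4 counts in Milli-Q water 2, 3 in Milli-Q water 4 and 0 in the other 6 libraries, which is too few for a fold.

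Ciita, the coactivator, was at 2.67, 2.92, 2.46 and 0.800 CPM with Milli-Q water, from 39, 49, 20 and 10 counts. With zinc it was at 0.375, 1.86, 0.982 and 0.484 CPM, from 4, 26, 14 and 6 counts. Milli-Q water 1 to 3 lay above every zinc library, while Milli-Q water 4 lay between them. The log2 fold change was -1.22 (SE 0.550). It ran from -1.82 without zinc 2 to -0.98 without zinc 1.

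**Figure D2:**
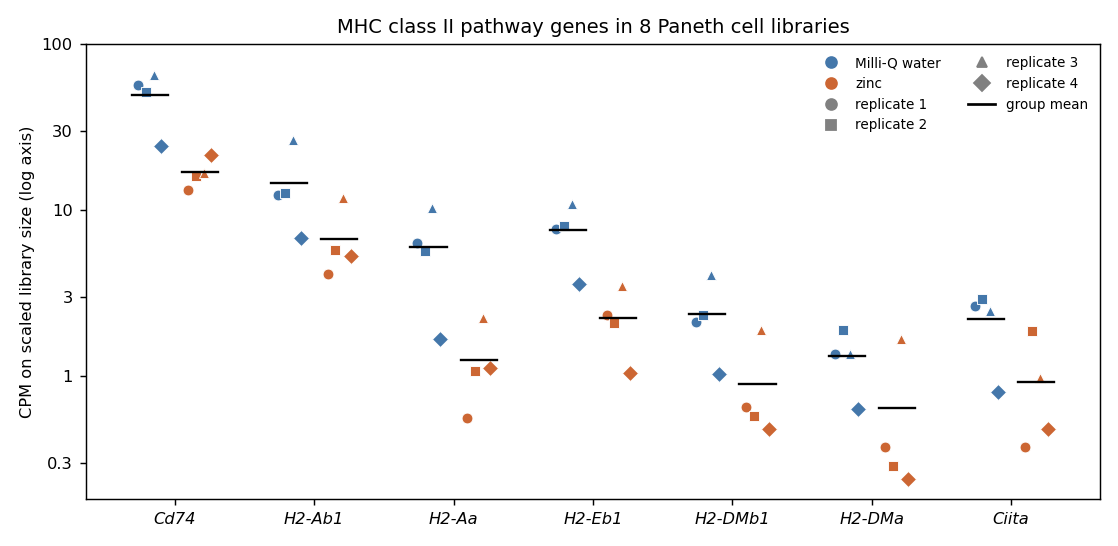
CPM of the 7 members that passed the filter in each of the 8 libraries, on a log axis; blue marks are Milli-Q water, orange marks zinc, the shape gives the replicate number and the black line the group mean. Milli-Q water 4 (blue diamond) is the lowest water library in 7 of 7 genes, and zinc 3 (orange triangle) is the highest zinc library in 5 of 7.

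Summed over the 8 genes, the class II level was 89.3, 85.2, 121 and 39.0 CPM in Milli-Q water 1 to 4 and 21.6, 27.8, 38.9 and 30.2 CPM in zinc 1 to 4. The means were 83.7 ± 33.8 and 29.6 ± 7.17 CPM, a ratio of 2.82. As a log2 ratio of zinc over water this was -1.50, and -1.65 without zinc 3. Milli-Q water 4 was nearer to the zinc libraries than to the other 3 water libraries. Without Cd74 the sum was 32.6, 33.8, 55.6 and 14.8 CPM with Milli-Q water and 8.43, 11.6, 22.1 and 8.71 CPM with zinc, and zinc 3 lay above Milli-Q water 4. On library totals without scaling factors the sum of the 8 genes overlapped too, at 42.1 CPM in zinc 3 and 34.8 CPM in Milli-Q water 4. That scaling moved the median log2 fold change of all genes to 0.14. On it Cd74 alone kept its groups apart, at 21.6 CPM in the lowest water and 21.1 CPM in the highest zinc library, and Milli-Q water 1 replaced Milli-Q water 3 as the library with the highest sum.

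The 7 tested members varied together from library to library. Over their 21 pairs, Pearson's r of log2(CPM + 0.5) across the 8 libraries had a median of 0.83, from 0.65 (H2-DMa with Ciita) to 0.97 (H2-Ab1 with H2-DMb1). The points share libraries, depth and scaling factors, and part of each r is the difference between the groups. After the group means were removed the median was 0.69, from 0.36 (Cd74 with H2-DMa) to 0.95. Without zinc 3 it was 0.91, from 0.76 to 0.99, the highest for Cd74 with H2-Aa. Within the 4 Milli-Q water libraries alone the median was 0.92, and within the 4 zinc libraries 0.41, with pairs from -0.63 to 1.00. Among the zinc libraries Ciita was highest in zinc 2 and Cd74 in zinc 4, while the other 5 tested genes were highest in zinc 3.

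**Figure D3:**
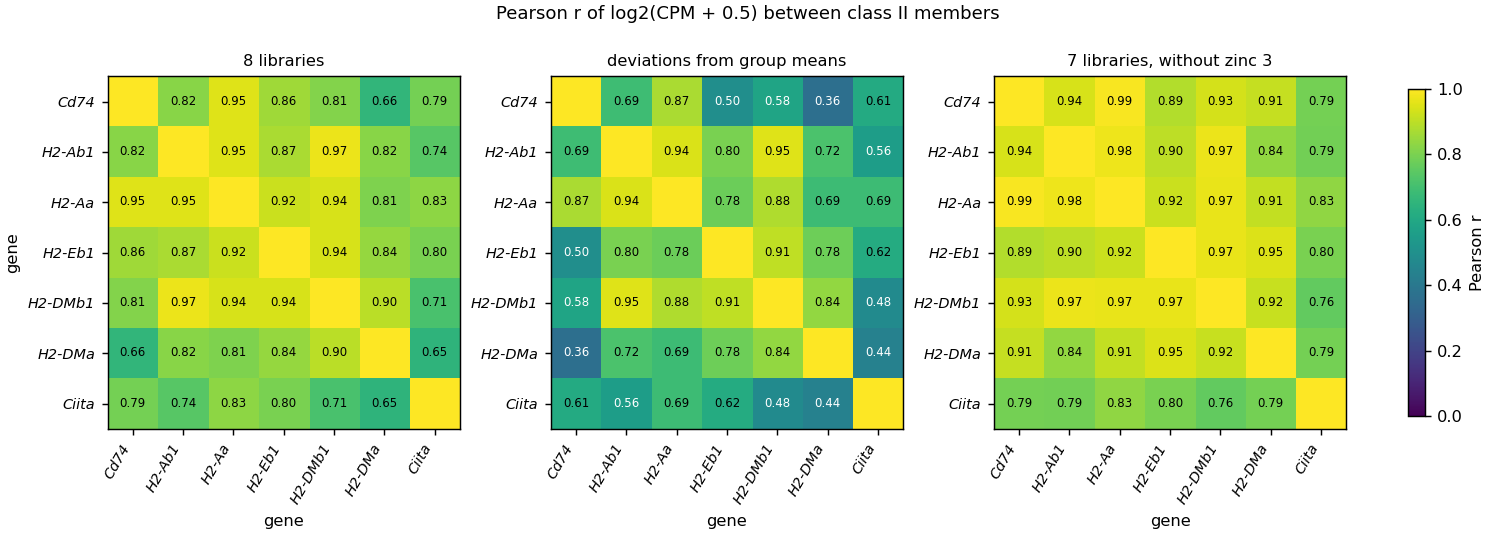
Pearson's r between the 7 tested members, as log2(CPM + 0.5), over 8 libraries (left), over deviations from group means (middle) and over 7 libraries without zinc 3 (right); the colour scale runs from 0 to 1 and each cell gives its r. The median of the 21 pairs is 0.83, 0.69 and 0.91 in the 3 panels.

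The genes outside the list with the most similar pattern were found by their r, across the 8 libraries, with the mean z score of the 7 tested members. The first was Fbxo30 (r 0.99, and 0.97 within groups), which encodes an F-box protein of a ubiquitin ligase, with a log2 fold change of -0.48 (SE 0.191). It was followed by Ccng2, Lsm7, Zfp946, Arsa, Mrm3, Anapc16, Fads6, Sp100 and Mtif2, with r from 0.95 down to 0.87. These are the highest values of a screen of all genes tested over 8 libraries. High r also arises by chance in such a screen, and no test was run. By the same measure H2-Aa stood in place 2 among all genes tested, H2-DMb1 in 3, H2-Eb1 in 4, H2-Ab1 in 6, Cd74 in 8, H2-DMa in 13 and Ciita in 24, but each of these is itself part of the score. Sp100, a nuclear body protein gene known as an interferon target, had the lowest fold change of the 10, at -1.24 (SE 0.472), and an r of 0.69 within groups.

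The rest of the class II pathway was described with 40 other genes in 6 lists. Of these, 28 could be tested, and 0 passed the edgeR test at an adjusted p of 0.05 in either direction. With an unadjusted p under 0.05 there was 1, higher with zinc, beside the 10.2% of all genes tested. The fitted value was lower in 21 and higher in 7, with a median log2 fold change of -0.18. Among all 10707 genes tested, 5263 were lower and 5444 higher. Without zinc 3 it was lower in 19 and higher in 9, with a median of -0.08.

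Other class II chain genes were almost without counts. H2-Ea, H2-Eb2 and H2-Oa had 0 counts in every library, and H2-Ob, a chain of the H2-O inhibitor of peptide loading, had 2 in all. H2-Ea encodes the usual alpha chain partner of H2-Eb1 and is known to be defective in mice of the C57BL/6 background, so H2-Eb1 counts stood here beside 0 counts of its partner.

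The factors that bind class II promoters had a median log2 fold change of -0.09, beside 0.0062 for all genes tested. All 8 genes for the RFX complex, NF-Y, CREB1 and ATF1 could be tested, with log2 fold changes from -0.21 to 0.08, 6 lower and 2 higher. The most abundant, Creb1, was at 33.2 ± 1.85 CPM with Milli-Q water and 34.8 ± 12.5 CPM with zinc (log2 fold change 0.07, SE 0.254, edgeR adjusted p 0.924). In zinc 3 alone it was at 16.7 CPM, and without that library its log2 fold change was 0.30 (SE 0.119, adjusted p 0.588). The list had 5 genes lower and 3 higher without zinc 3, with a median of -0.05.

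Interferon-gamma signalling genes had lower fitted values with zinc in 8 of the 8 tested, from -1.14 to -0.13 on the log2 scale with a median of -0.39, and 0 passed the test. Ifng itself, the gene of the cytokine, had 0 counts in every library. The list summed to 594 to 655 CPM with Milli-Q water, 531 to 588 CPM in zinc 1, 2 and 4 and 214 CPM in zinc 3. Without zinc 3 the median was -0.10, 5 genes lower and 3 higher. Jak1, the most abundant of them and the gene of a receptor-bound kinase, was at 161 ± 5.38 and 143 ± 35.6 CPM (log2 fold change -0.17, SE 0.195, edgeR adjusted p 0.723) and at 0.0026 without zinc 3.

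Irf1 and Socs1 are named after their values were seen, as the genes of that list whose zinc libraries all lay below the water libraries. Irf1, a transcription factor gene that acts upstream of Ciita, was at 141, 156, 169 and 156 CPM with Milli-Q water and at 110, 122, 22.9 and 86.0 CPM with zinc. Its log2 fold change was -0.87 (SE 0.393, edgeR adjusted p 0.485), and -0.55 without zinc 3. Socs1, a feedback inhibitor gene of JAK kinases, had a log2 fold change of -1.14 (SE 0.518, adjusted p 0.485), and -0.76 without zinc 3. In zinc 3, where H2-DMa, H2-DMb1, H2-Aa, H2-Ab1 and H2-Eb1 were highest among the zinc libraries, both genes were lowest.

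Endolysosomal processing genes, which cut proteins and the invariant chain, went both ways. Of the 10 tested, 4 were higher and 6 lower, with a median log2 fold change of -0.21. Without zinc 3, 3 were higher and 7 lower, with a median of -0.10. Ifi30, the gene of a thiol reductase that opens disulfide bonds in antigens, was the gene with an unadjusted p under 0.05. It was at 18.4, 20.1, 14.3 and 16.8 CPM with Milli-Q water and at 24.8, 20.2, 36.6 and 17.7 CPM with zinc (log2 fold change 0.51, SE 0.224, edgeR adjusted p 0.485). Zinc 3 was its highest library, and without it the log2 fold change was 0.26. Sppl2a, the most abundant and the gene of a protease that clears the last invariant chain fragment, was at 250 ± 19.3 and 205 ± 59.4 CPM (log2 fold change -0.29, SE 0.215, adjusted p 0.591), and at -0.11 without zinc 3. Ctss, a protease gene named after its values were seen as the highest fold change of the list, was at 1.07 ± 0.494 and 1.81 ± 1.01 CPM (log2 fold change 0.78, SE 0.536, adjusted p 0.568), and at 0.53 without zinc 3.

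Of the 2 ubiquitin ligase genes that remove class II molecules from the surface, Marchf1 had 0 counts and Marchf8 was at 33.9 ± 1.59 and 34.4 ± 4.17 CPM (log2 fold change 0.02, SE 0.128, edgeR adjusted p 0.950). Genes listed under costimulation, the second signal for T cells, were scarce apart from Icosl. Over all libraries Cd86 and Pdcd1lg2 had 0 counts, Cd80 had 2, Cd40 had 38 and Cd274 had 56. Icosl was at 12.4 ± 2.75 CPM with Milli-Q water and 6.77 ± 4.82 CPM with zinc (log2 fold change -0.88, SE 0.609, edgeR adjusted p 0.572). In zinc 3 Icosl had 5 counts, or 0.351 CPM, and without that library its log2 fold change was -0.47 (SE 0.229, adjusted p 0.629).

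**Figure D4:**
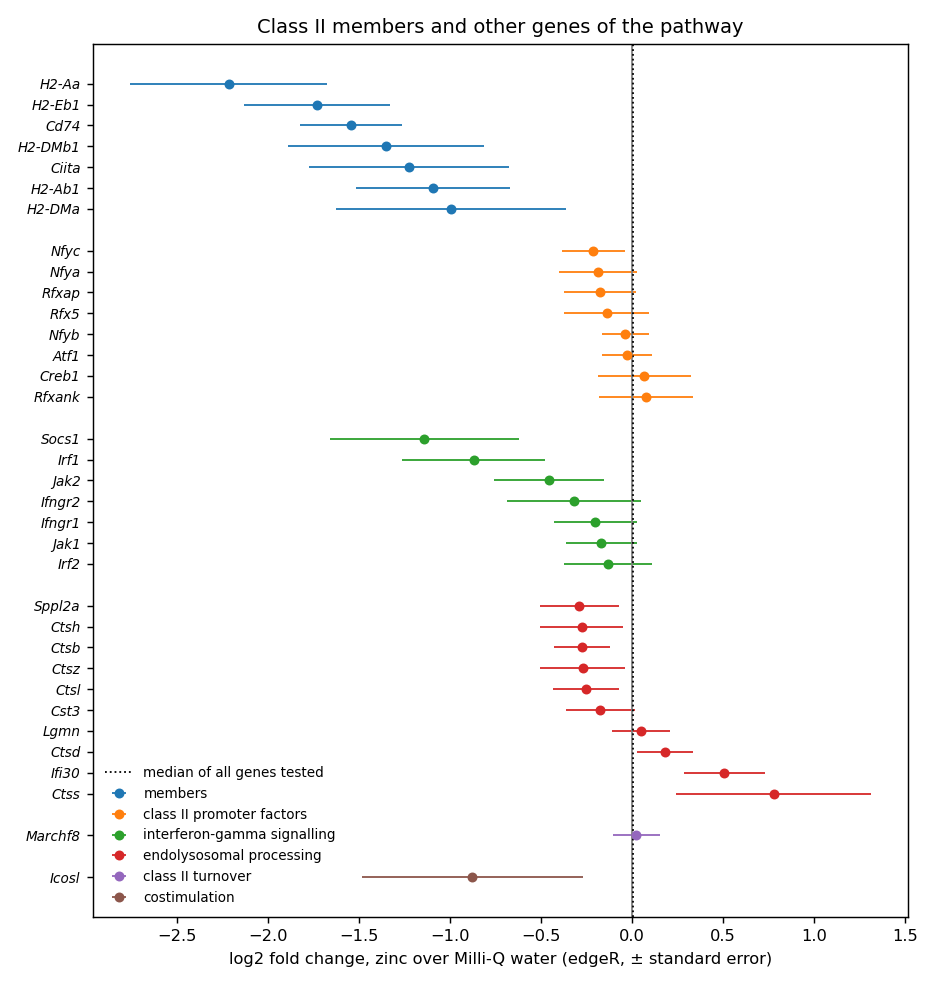
Log2 fold change of zinc over Milli-Q water with its standard error (edgeR fit) for the 7 tested members and 27 of the 28 other tested pathway genes, coloured by list; the dotted line is the median of all 10707 genes tested, 0.0062. The members lie between -2.22 and -0.99, the promoter factors between -0.21 and 0.08, and the interferon-gamma signalling genes between -1.14 and -0.13.

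Leukocytes carry class II transcripts, so their markers were read beside the members. Of 24 marker genes, 1 passed the filter (Cd14), and 8 had 0 counts in every library, among them Itgax, Adgre1, Cx3cr1, Flt3, Tyrobp, Fcer1g and Xcr1. Ptprc, the pan-leukocyte gene, had 2 counts in all. Besides Cd14, 15 markers had counts, the most for Zbtb46 (42 over all libraries), Igkc (40), Cd68 (14) and Cd79a (12). Without Cd14 the list summed to 0.369 to 3.04 CPM with Milli-Q water and 0.491 to 2.25 CPM with zinc, so the ranges overlapped. Milli-Q water 3, with the highest class II sum, had the lowest leukocyte sum, from 3 counts. Cd14 was at 4.99 ± 2.84 CPM with Milli-Q water and 3.06 ± 1.34 CPM with zinc (log2 fold change -0.68, SE 0.450, edgeR adjusted p 0.553), and at -0.40 without zinc 3.

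Cytokine response genes and markers of some other epithelial cells also differed between the groups in their fitted values, with 0 genes called in each list. Genes of a list share the same libraries, so their directions are not independent. Over all 10707 genes tested, 5263 were lower with zinc and 5444 higher. Interferon-stimulated genes were lower with zinc in 14 of 14 tested, with a median log2 fold change of -0.80, and in 14 of 15 without zinc 3, with a median of -0.66. The gene added without zinc 3 was Iigp1, at a mean of 1.14 CPM with Milli-Q water and 0.0403 CPM with zinc. It passed the filter through its water libraries, so its direction was fixed by the filter. TNF and NF-kB targets were lower in 14 of 14, with a median of -0.50, and in 9 of 14 without zinc 3, with a median of -0.13. Crypt stem cell markers were higher in 7 of 7, with a median of 0.96, and in 6 of 7 without zinc 3, with a median of 0.62. Enterocyte markers were higher in 7 of 7, with a median of 0.86, and in 3 of 7 without zinc 3, with a median of -0.02. Goblet cell markers went both ways, 4 higher and 4 lower, with a median of 0.36. Enteroendocrine and tuft markers were higher in 3 of 4, with a median of 0.29. The PC markers themselves were lower in 9 of 10, with a median of -0.28. In zinc 3, where 5 of the 7 tested class II genes were highest among the zinc libraries, enterocyte markers were at 574 CPM and crypt stem cell markers at 1171 CPM, beside 1134, 811 and 524 CPM for the stem cell markers in zinc 1, 2 and 4 and 459 to 643 CPM with Milli-Q water. Interferon-stimulated genes summed to 88.3 CPM in zinc 3, 340 to 371 CPM in the other zinc libraries and 409 to 473 CPM with Milli-Q water, so the groups did not overlap. In Milli-Q water 4, which had the lowest class II level of its group, the TNF target sum was also the lowest of the group, at 1498 CPM beside 1589 to 1721 CPM. The same held for interferon-gamma signalling genes (594 CPM beside 629 to 655), crypt stem cell markers (459 CPM beside 584 to 643) and enterocyte markers (109 CPM beside 117 to 134). The interferon-stimulated sum (417 CPM) and the leukocyte sum without Cd14 (0.880 CPM) lay within the range of the other water libraries. The part of these cell types and responses in the class II values was not tested.

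**Figure D5:**
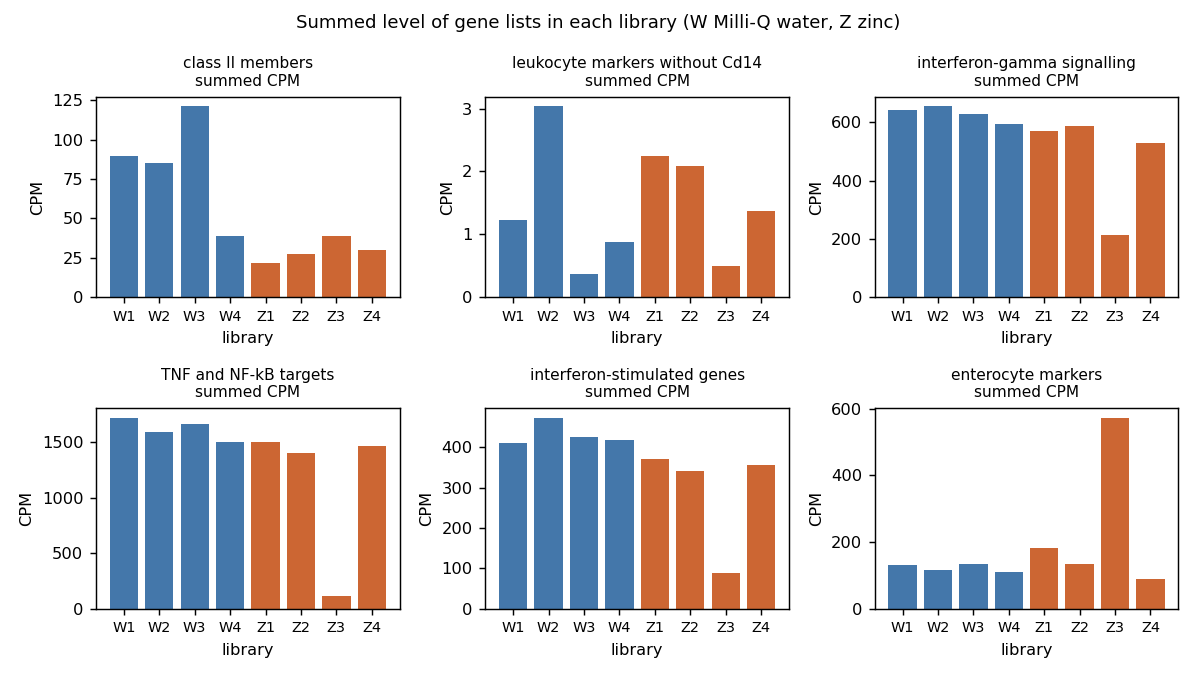
Summed CPM of the 8 class II members and of 5 other gene lists in each library, with Milli-Q water (W1 to W4) in blue and zinc (Z1 to Z4) in orange, each panel on its own linear axis from 0. The class II sum is 85.2 to 121 CPM in W1 to W3 and 39.0 in W4, while zinc 3 is the library that stands apart in the TNF target (117 CPM), interferon (88.3 CPM) and enterocyte (574 CPM) panels.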

How the data were processed

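The values are raw counts of reads by Ensembl gene, which the authors deposited as a single table with a column for each library. Per the labels, RNA was made into libraries with a stranded mRNA kit, and the submitters' processing notes name FastQC 0.12.0, STAR 2.7.10a, DESeq2 and mm39. The study's methods describe STAR with a GENCODE annotation of GRCm39 for its own alignment of many data sets; the counter, annotation release and strand setting behind this table are not given in the sources used here, so reads of overlapping genes on opposite strands, and of the copies H2-DMb1 and H2-DMb2, cannot be told apart with certainty. Samples were grouped by their labels.

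The 8 genes and all gene lists were chosen with earlier results of these data known. Symbols, coordinates and exon lengths were taken from GENCODE M39 by identifier (54749 of 55414 matched). Zinc was compared with Milli-Q water on the whole table by the edgeR 4.0.16 quasi-likelihood F-test in R 4.3.3 with TMM factors. The default filter (minimum count 10) kept 10707 genes with 99.89% of the counts, and p was adjusted by Benjamini and Hochberg. CPM used scaled library sizes, and TPM used raw counts over the union of exons. The script was tested on simulated data.

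Named were the 8 genes, the pathway genes with an unadjusted p under 0.05, the most abundant gene of each pathway list and the 10 most similar genes; others were chosen after their values were seen. Promoter windows came from the RefSeq table on GRCm38.p6, matched by symbol for 5 of the 8 genes. As alternatives, DESeq2 size factors, upper-quartile factors, removal of Defa genes, no filter (at least 1 count), a stricter filter (1 CPM in 4 libraries and 100 counts), DESeq2 1.42.0, a block for the replicate number, limma-voom 3.58.1 with sample weights, leaving out each library in turn, Milli-Q water 3 and 4 left out together, and the longest transcript as length were tried. Library totals without scaling factors were added after the data had been seen. Replicates were separate mice. Values of some single genes of the lists are not reported here, though the list counts hold them.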

Additional observations from a re-analysis of the deposited data

Results flagged for a closer look

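In groups of 4, a library was listed where its gap to the nearest other library, as a share of the group's range, was above Dixon's 95% critical value. Of 43 groups searched, 6 had such a library, where chance gives about 1 in 20, or 2.15, if the groups are independent. They are not, as they reread the same libraries over related genes, so the 2 numbers cannot be compared directly. All flags but that of the goblet cell markers were for zinc 3. Among the class II genes these were H2-DMa in zinc 3, at 1.68 CPM beside 0.242 to 0.375 CPM in the other zinc libraries, and H2-DMb1 in zinc 3, at 1.89 CPM beside 0.484 to 0.656 CPM. Both rest on few counts, 24 and 27 in zinc 3.

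The same library was far below its group in the summed level of interferon-gamma signalling genes (214 CPM beside 531 to 588), of TNF and NF-kB targets (117 CPM beside 1399 to 1498) and of interferon-stimulated genes (88.3 CPM beside 340 to 371). Irf1 stands in more than 1 of these lists. Goblet cell markers summed to 15088 CPM in Milli-Q water 3, beside 10409 to 11128 CPM in the other water libraries.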

How the results depend on the processing

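Over 18 alternatives to the fit across all genes, the log2 fold change of the 7 tested class II genes stayed below 0, and no other pathway gene was called. The place of Cd74 in the order by p ran from 1 to 35 over them, with 16 for the replicate block and 35 without zinc replicate 4. DESeq2 called 4 genes where edgeR called 0, and the cause was not tested. With the replicate number as a block, 0 genes were called and 802 had an unadjusted p under 0.05, beside 1092 without it, and the median of the members was -1.46. Over all genes tested, same-numbered water and zinc libraries did not deviate together (r from -0.039 to 0.034). Deviations within groups of 4 mice cannot tell whether the numbers pair the mice. The block changed no call. The number of genes with an unadjusted p under 0.05 was 1711 of 18747 without a filter, 641 without Milli-Q water replicate 3, 672 without Milli-Q water replicate 4, 1960 without zinc replicate 4 and 312 without both Milli-Q water 3 and 4.

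With 1 library left out, the median of the members was lowest without zinc replicate 3, at -2.01, and highest without zinc replicate 4, at -1.15, beside -1.35. The log2 ratio of the summed level ran from -1.73 (without Milli-Q water replicate 4) to -1.27 (without Milli-Q water replicate 3), beside -1.50. The median r between members was 0.69 within groups and 0.91 without zinc replicate 3, beside 0.83. H2-DMa was at -1.92 by limma-voom, beside -0.99. With 7 counts of H2-DMb2 and 106 of H2-DMa over all libraries, depth limits what can be said of the peptide-loading genes.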

Other observations

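The ratio of the alpha chain gene H2-Aa to its partner H2-Ab1, taken per length as TPM, was 0.307, 0.267, 0.233 and 0.148 in Milli-Q water 1 to 4 and 0.0816, 0.112, 0.114 and 0.127 in zinc 1 to 4. The 4 zinc libraries lay below the 4 water libraries, including Milli-Q water 4, where the level of both genes was near that of the zinc group. The ratio of Cd74 to H2-Ab1 ran from 2.51 to 4.68 with Milli-Q water and from 1.46 to 4.12 with zinc, and the groups overlapped. The lower water ratios of H2-Aa to H2-Ab1 were those of Milli-Q water 3 and 4, singled out earlier as short-transcript libraries. H2-Aa (4292 bases) is longer than H2-Ab1 (2568 bases), and the part of transcript length in this ratio was not tested. H2-Aa had 6 to 32 counts in the zinc libraries, and its gene overlaps H2-Eb1 on the other strand. Both ratios come from the contrast on which the genes were chosen, so they are given as values.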
